A study of Mus musculus with 9 samples.

Results

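Bnc1, which encodes the zinc finger protein basonuclin 1, and Wfdc2, which encodes a small secreted protein of the whey acidic protein (WAP) family also known as HE4, were examined in a mouse pancreatic cancer cell line. They are 2 of the 18193 genes that the array measured with single-gene probe sets, and each had 1 such probe set, 1424890_at for Bnc1 and 1424351_at for Wfdc2. They were chosen by their values on these same 9 arrays, because both lay below control in beta-catenin cells and above control in ICAT cells. Their levels in the 3 groups are therefore given as a description and carry no test. All 9 arrays came from line 170#3, of mixed C57BL6, FVB and 129Sv background, grown as a monolayer in DMEM with 10% FBS. The 3 groups were stable transfectants. One was a control. One expressed beta-catenin, through which Wnt signals reach the nucleus. The last expressed ICAT, a small protein that keeps beta-catenin from binding TCF/LEF factors. Each group had 3 arrays, labelled as biological replicates. Neither the promoter of the constructs nor the vector of the control is named in the labels, and they do not say whether a group was a single clone or a pool. All p-values therefore rest on the spread between these samples, which may be technical.

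Basonuclin 1 is a nuclear protein with paired zinc fingers, known from the basal layer of stratified epithelia and from germ cells. It binds promoters of the ribosomal RNA genes and of some genes read by RNA polymerase II. It is also expressed in mesothelium. Wfdc2 is made by many glandular and duct-lining epithelia, and the human protein is a serum marker of ovarian cancer. WAP domains are short cysteine-rich folds, and several family members, such as Slpi, inhibit serine proteases. Beta-catenin acts on genes through TCF/LEF factors, and ICAT competes for the same surface of beta-catenin.

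The promoter sequences of both genes are shown because the genes were chosen for moving together in opposite directions with beta-catenin and with its inhibitor. Each is the 250 bases before an annotated start in RefSeq, on build GRCm38.p6, written 5′ to 3′ on the gene's strand. For Wfdc2 there were 2 such windows, and only the first was searched and is shown. Capitals mark GC boxes, which were the only one of 5 motifs searched that either window held. Bnc1 lies on the minus strand at chr7:81992300-81992549 and Wfdc2 on the plus strand at chr2:164562465-164562714.
Bnc1: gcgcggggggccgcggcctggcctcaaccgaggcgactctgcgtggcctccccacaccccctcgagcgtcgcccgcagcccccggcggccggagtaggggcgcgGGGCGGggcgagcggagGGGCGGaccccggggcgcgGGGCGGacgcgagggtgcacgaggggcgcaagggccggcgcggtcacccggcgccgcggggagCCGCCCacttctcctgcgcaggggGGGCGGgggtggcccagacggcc
Wfdc2: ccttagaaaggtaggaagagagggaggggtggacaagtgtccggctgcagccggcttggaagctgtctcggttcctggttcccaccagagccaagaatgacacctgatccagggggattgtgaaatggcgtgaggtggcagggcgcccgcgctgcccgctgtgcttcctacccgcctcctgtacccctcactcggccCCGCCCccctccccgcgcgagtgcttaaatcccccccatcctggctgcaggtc

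The Bnc1 window had a GC content of 83.6% and held 39 CpG dinucleotides, more than in 98.4% of the 32851 promoter windows of that length. The Wfdc2 window had 64.8% GC and 14 CpG, against a median of 52.4% and 6 over all windows. GC boxes, searched as GGGCGG on both strands, occurred 5 times before Bnc1 and 1 time before Wfdc2, and 32.7% of all windows held at least 1. The TCF/LEF core CTTTGA was in neither window on either strand, as in all but 13.8% of windows. The AP-1 site TGAGTCA (4.46% of windows), the TATA box TATAAA (12.4%) and the E-box CACGTG (6.02%) were in neither window on either strand. No 2 of the motifs searched contain one another. These counts describe letters in a short window and say nothing of whether a factor binds.

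Replicate arrays were close to one another over the 15235 genes tested, with lowest correlations of 0.998 for control, 0.997 for beta-catenin and 0.9908 for ICAT. The median SD of a gene on the log2 scale was 0.0567 for control, 0.0746 for beta-catenin and 0.121 for ICAT arrays. Epithelial markers were checked against the label of the line, with log2 5 as the limit that was used for low values. Krt18 (control mean log2 7.23) and Krt8 (6.45) lay above it. Epcam stood at 7.48 in control cells by its brightest probe set and at 5.63 by its other one. Krt19 lay near the limit (5.28) and Cdh1 lay under it on every array (at most 3.56). The limit is below the array medians (6.21 to 6.29). Markers of other cell types, such as Cd3e (7.07), Csf1r (7.25) and Kdr (7.41), also lay above it in control cells. A value above the limit therefore does not show by itself that a marker is expressed. Group means of the probe sets for the transfected genes were close. In control, beta-catenin and ICAT cells Ctnnb1 stood at 12.68, 12.88 and 12.88 and Ctnnbip1, which encodes ICAT, at 8.64, 8.78 and 8.79. By limma Ctnnb1 was 0.20 above control on the log2 scale with beta-catenin (adjusted p = 0.0353) and 0.19 with ICAT (adjusted p = 0.0364), and Ctnnbip1 passed in neither comparison. Probe positions and the stretch of each gene in the constructs were not examined here, so these values are not read as a check of the labels.

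Bnc1 expression in control cells was log2 6.55, 6.30 and 6.37 on the 3 arrays. In beta-catenin cells it was 4.77, 4.99 and 4.45, and in ICAT cells 8.17, 8.07 and 8.25. The groups did not overlap. All 3 beta-catenin arrays lay under log2 5, a limit chosen here, and values under it were taken to have no sure order. Control cells averaged 6.40 ± 0.132 (SD, n = 3), beta-catenin cells 4.73 ± 0.27 and ICAT cells 8.16 ± 0.0934. Bnc1 was thus at least 2.65-fold lower in beta-catenin than in control cells, with the beta-catenin arrays set to the limit of 5, and 3.38-fold higher in ICAT than in control cells. On the deposited values the log2 differences were -1.67 and 1.76. The nearest arrays of the beta-catenin and control groups were 1.31 apart on the log2 scale and those of the ICAT and control groups 1.52 apart, whereas the widest range within a group was 0.538. Between ICAT and beta-catenin cells Bnc1 differed at least 8.96-fold.

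Wfdc2 expression in control cells was log2 10.51, 10.61 and 10.59. In beta-catenin cells it was 8.62, 8.87 and 8.71, and in ICAT cells 12.17, 11.89 and 11.88. The groups did not overlap, and every array lay well above the limit of 5, so that the folds of Wfdc2 are measured on both sides. Control cells averaged 10.57 ± 0.0521 (SD, n = 3), beta-catenin cells 8.74 ± 0.128 and ICAT cells 11.98 ± 0.164. Wfdc2 was 3.56-fold lower in beta-catenin than in control cells (log2 difference -1.83) and 2.65-fold higher in ICAT than in control cells (1.41). The nearest beta-catenin and control arrays were 1.64 apart and the nearest ICAT and control arrays 1.27 apart, against a widest range of 0.286 within a group. Between ICAT and beta-catenin cells Wfdc2 differed 9.45-fold. In such bulk samples, fewer cells with a transcript and less of it per cell cannot be told apart.

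**Figure D1:**
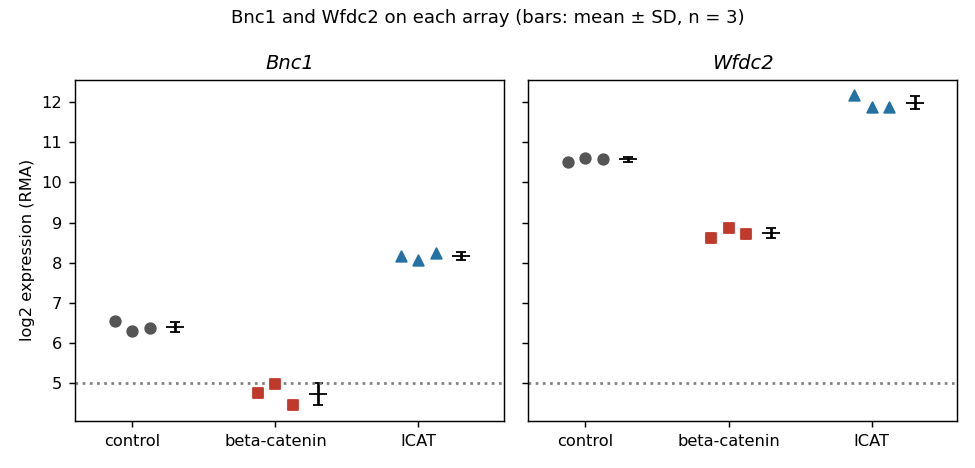
Log2 expression (vertical axis, RMA values) of Bnc1 (left) and Wfdc2 (right) on each of the 9 arrays, by group, with the mean and SD of 3 arrays beside the points and the limit of log2 5 as a dotted line. Both genes are lowest on the beta-catenin arrays and highest on the ICAT arrays, and the 3 Bnc1 values of beta-catenin cells lie under the dotted line.

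The order of the groups was the same for both genes, beta-catenin below control below ICAT, and no neighbouring groups overlapped. For Wfdc2 the difference with beta-catenin was the larger one in size, and for Bnc1 the values under 5 leave that order unsure. Over the 9 arrays the 2 genes correlated at a Pearson r of 0.989 (Spearman rho 0.867), which mostly restates that both follow the 3 groups on the same arrays. Within groups the agreement was weak. The deviations from the group means correlated at 0.184 over the 9 arrays and had the same sign on 4 of them. Wfdc2 was highest on ICAT replicate 1, where Bnc1 lay between the other ICAT arrays.

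Both members belong to a small class of genes with this pattern. By limma, 34.9% of the 15235 genes were called between beta-catenin and control cells at an adjusted p under 0.05 (15.4% lower, 2340 genes, and 19.6% higher). With array weights the same comparison gave 4188 lower and 4136 higher genes, so the count of lower genes and the direction of the split depend on that choice. Between ICAT and control cells 37.2% were called (18.7% higher, 2850 genes, and 18.5% lower). When each array was centred on its median, which moved ICAT minus control by -0.12 for every gene, the split was 1965 higher and 4924 lower for ICAT in place of 2850 and 2820, and 2533 higher and 3075 lower for beta-catenin in place of 2981 and 2340. Genes called lower with beta-catenin and called higher with ICAT numbered 278 (1.82% of all tested), which is 11.88% of those lower with beta-catenin and 9.75% of those higher with ICAT. The count was 172 without control replicate 1 and 180 without control replicate 3, and both comparisons share the 3 control arrays. All beta-catenin arrays lay below and all ICAT arrays above every control array in 3.48% of the tested genes, and Bnc1 and Wfdc2 are counted among them because that is how they were chosen. The 278 genes had a median log2 difference of -0.46 with beta-catenin and 0.45 with ICAT, and only 13 of them differed at least 2-fold from control in both lines.

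Ranked by the smaller of the absolute log2 differences from control, Bnc1 and Wfdc2 led the 278 genes. Their own order is not fixed, since the smaller difference of Wfdc2 was 2.65-fold and that of Bnc1 is a bound of at least 2.65-fold. Among the 15235 genes Bnc1 had the 101st highest difference with ICAT, and its place with beta-catenin is not given because those arrays lie under log2 5. Wfdc2 had the 73rd lowest difference with beta-catenin and the 176th highest with ICAT on the deposited values. In beta-catenin minus ICAT, where 40.4% of genes were called and 17.9% lower, Wfdc2 had the 14th lowest difference, and Bnc1 again has only a bound. Place 3 was held by Col1a2, a collagen I chain gene, which was 2.62-fold lower in beta-catenin and 2.73-fold higher in ICAT than in control cells. Efemp1, which encodes the matrix protein fibulin 3, followed with 3.54-fold lower and 2.49-fold higher values. Next came the integrin gene Itgb8 (at least 3.67-fold lower and 2.46-fold higher), the interferon-inducible Ifitm1 (2.41-fold and 2.92-fold), Xist, the long RNA of X inactivation (2.35-fold and 7.16-fold), Epas1, which encodes the hypoxia-inducible factor HIF-2 alpha (2.21-fold and 3.48-fold, the latter a log2 difference of 0.91 with the mean of its probe sets), the guidance ligand gene Slit2 (2.32-fold and 2.10-fold) and Fam43a (3.05-fold and 2.09-fold). These 10 genes were taken for the size of their opposite differences, so their direction is fixed by the choice.

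**Figure D2:**
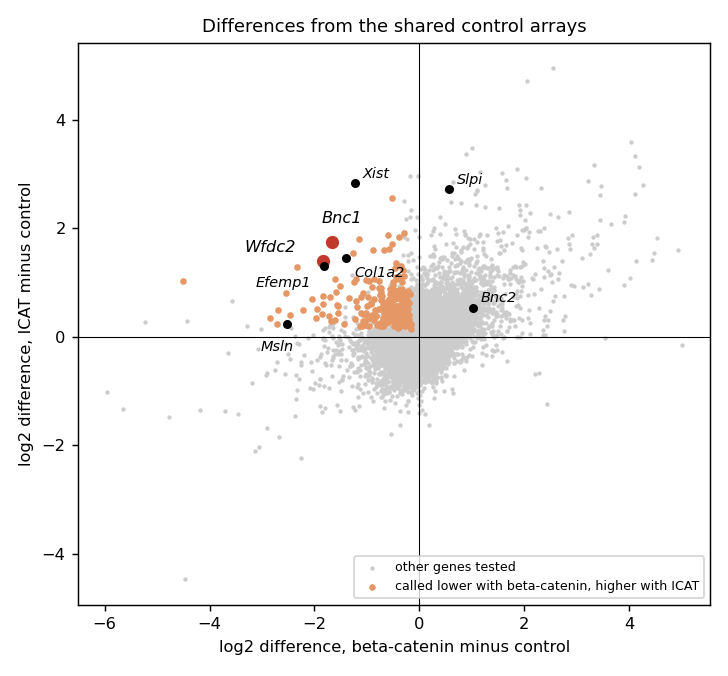
Log2 difference of beta-catenin minus control (horizontal axis) against ICAT minus control (vertical axis) for each of the 15235 genes tested, from group means of 3 arrays that share the control arrays. Orange points are the 278 genes called lower with beta-catenin and higher with ICAT, red points are Bnc1 and Wfdc2 at the upper left, and black points name other genes described in the text.

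The genes whose values over the 9 arrays were most like those of a member differed in size from it. For Bnc1 they were Col1a2 (Pearson r 0.9959), the phosphatase gene Ptpn13 (0.9959), Hcfc1r1 (0.9958), Litaf, which encodes a lysosomal membrane protein (0.9954), and the collagen VIII gene Col8a1 (0.9954). For Wfdc2 they were Socs5, which encodes a suppressor of cytokine signalling (0.9994), the receptor gene Gprc5b (0.9985), the vesicle fusion gene Vamp4 (0.9981), the trans-Golgi gene Tgoln1 (0.997) and Slit2 (0.9965). The arrays fall into 3 groups and these values are chosen maxima, so they measure a shared order and spacing of group means. Socs5 stood at log2 10.96, 11.00 and 11.01 in control, 10.27, 10.36 and 10.31 in beta-catenin and 11.51, 11.44 and 11.42 in ICAT cells, in the order of Wfdc2 but with smaller differences, of -0.67 and 0.47. Ptpn13 differed from control by -0.76 and 0.77 on the log2 scale, against -1.67 and 1.76 for Bnc1. A correlation over 0.95 with Bnc1 was seen for 192 genes and with Wfdc2 for 205. Wfdc2 was the 19th most like Bnc1, and Bnc1 the 33rd most like Wfdc2.

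**Figure D3:**
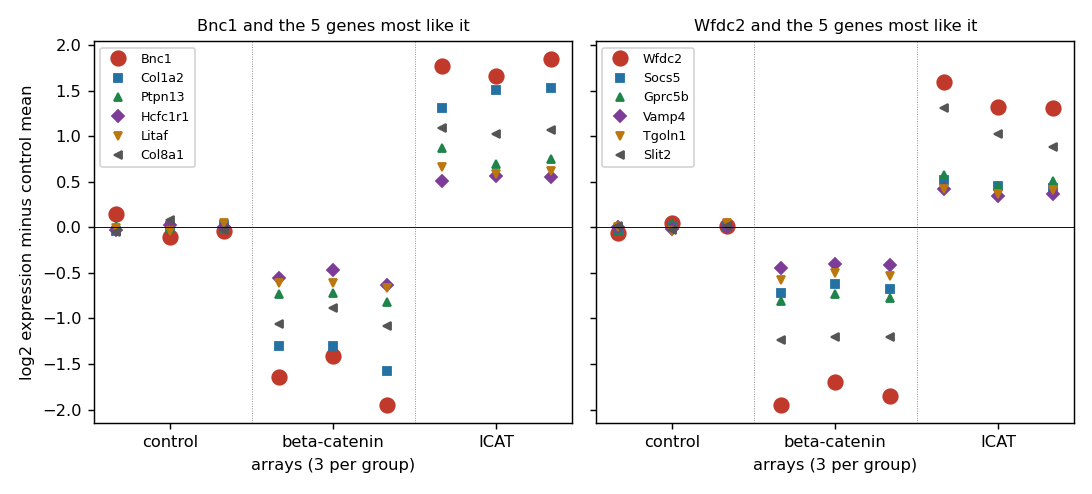
Log2 expression minus the control mean (vertical axis) on each of the 9 arrays (horizontal axis, 3 per group) for Bnc1 with the 5 genes most like it (left) and Wfdc2 with the 5 most like it (right). The members, as large circles, lie furthest from 0 in both transfected groups, and the other genes keep the order of groups at smaller differences.

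The paralog of Bnc1 did not follow it. Bnc2, which encodes basonuclin 2, a related zinc finger protein, stood at log2 9.25, 9.37 and 9.38 in control, 10.38, 10.36 and 10.33 in beta-catenin and 10.10, 9.71 and 9.81 in ICAT cells. The transfected arrays all lay above the control arrays, and the highest values were those of beta-catenin cells, where Bnc1 was lowest. In beta-catenin cells Bnc2 rose 2.03-fold (limma, adjusted p = 5.38e-06) and in ICAT cells 1.45-fold (adjusted p = 0.000803), and it was higher in beta-catenin than in ICAT cells by 0.49 on the log2 scale (adjusted p = 0.00135). A second Bnc2 probe set was higher too, by 1.31 with beta-catenin and 0.29 with ICAT on the log2 scale (adjusted p = 2.8e-07 and 0.027 over all probe sets), and the dimmest was called in neither comparison (0.0684 and 0.545).

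Among relatives of Wfdc2, Slpi, the secretory leukocyte protease inhibitor, was the other WAP domain gene with a large difference. It stood at log2 10.64, 10.57 and 10.61 in control, 11.13, 11.34 and 11.03 in beta-catenin and 14.05, 13.08 and 12.86 in ICAT cells. The ICAT arrays lay above all others, as those of Wfdc2 did, and ICAT replicate 1 was the highest for both genes. Slpi rose 6.60-fold with ICAT (limma, adjusted p = 7.4e-06). With beta-catenin, where Wfdc2 was lower on every array, Slpi was 0.56 above control on the log2 scale and did not pass (adjusted p = 0.089). The 13 other tested WAP domain genes lay between -0.28 and 0.09 from control with beta-catenin and between -0.23 and 0.14 with ICAT. Their group means ran from log2 4.89 to 7.24, around the array medians of 6.21 to 6.29. Wfdc2 and Slpi averaged 10.57 and 10.61 in control cells. Whether the 13 genes were expressed was not tested, so their small differences are not read as a lack of response. Without Wfdc2, the 14 tested members had 0 higher and 0 lower calls by limma with beta-catenin (1 higher and 1 lower at an unadjusted p of 0.05; median log2 difference -0.09 against -0.03 for all tested genes). Over all tested genes 19.6% were higher and 15.4% lower with beta-catenin, and 18.7% higher and 18.5% lower with ICAT. With ICAT, 1 of the 14 was higher and 1 was lower (median -0.04 against -0.01). The lower one was Wfdc15a, by 0.23 on the log2 scale (limma, adjusted p = 0.0471), a call lost in 10 of 16 alternative analyses. Wfdc1, Wfdc3, Wfdc5, Wfdc12, Wfdc15b, Wfdc17, Wfdc18, Wfdc21, Wap, Eppin, Wfikkn1 and Wfikkn2 were called in neither comparison with control, and Wfdc6a, at 5.04 or less on every array, was not tested.

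**Figure D4:**
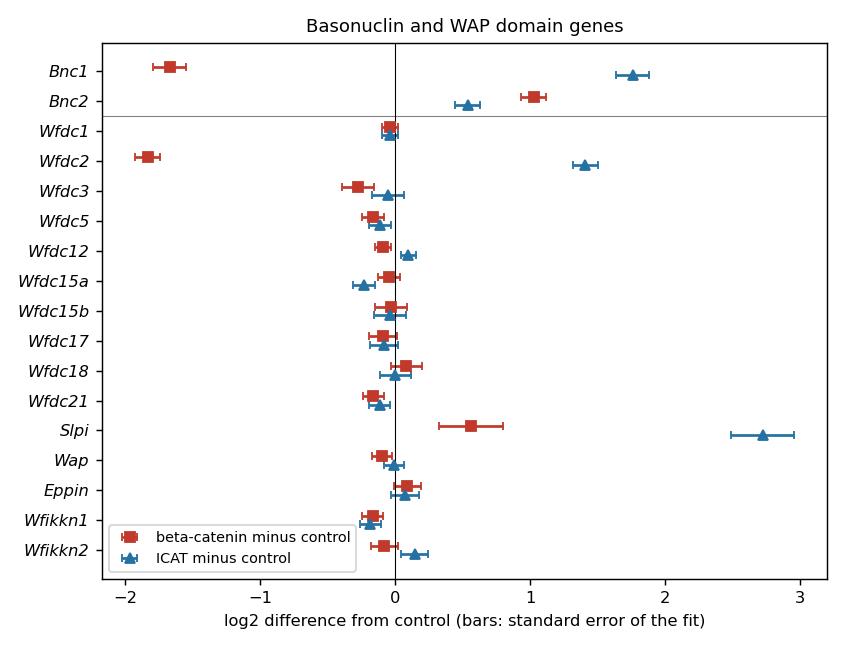
Log2 difference from control (horizontal axis) with beta-catenin (squares) and ICAT (triangles) for the tested basonuclin genes (above the line) and WAP domain genes (below it), with the standard error of the limma fit as bars and n = 3 arrays per group. Bnc1 and Wfdc2 lie left of 0 with beta-catenin and right of it with ICAT, Bnc2 lies right of 0 in both, Slpi lies far to the right with ICAT, and the remaining genes lie within 0.28 of 0.

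The RNA polymerase I machinery, which transcribes the ribosomal RNA genes that basonuclin 1 is known to bind, did not show the opposite pattern of Bnc1. Of 16 genes tested, 8 were lower and 2 higher with beta-catenin (median log2 difference -0.18; background 15.4% lower and 19.6% higher), and 10 were lower and 1 higher with ICAT (median -0.29; background 18.5% lower and 18.7% higher). Polr1b, a large subunit gene of the polymerase, fell in both lines, 1.30-fold and then 2.56-fold for ICAT (limma, adjusted p = 0.000806 and 1.74e-07). Taf1d, which encodes a promoter recognition factor, fell 3.09-fold with ICAT by its brightest probe set and by 0.81 on the log2 scale by the mean of its probe sets, and the initiation factor gene Rrn3 fell in both lines, 1.39-fold and 1.29-fold. Taf1b moved as Bnc1 did, 1.19-fold lower with beta-catenin and 1.30-fold higher with ICAT (adjusted p = 0.0363 and 0.00323), and the first call was lost in 5 of 17 alternatives. Cd3eap and Taf1c, a further subunit and a further recognition factor gene, moved the other way, higher with beta-catenin and lower with ICAT by 1.21-fold to 1.28-fold, and the calls of Taf1c were lost in 6 and 4 of 17 alternatives.

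Among genes of the tissues in which the members are usually found, Klf4 moved as Bnc1 did, and Krt18 and Krt8 rose with ICAT. Their counts stand beside shares over all tested genes of 15.4% lower and 19.6% higher with beta-catenin and of 18.5% lower and 18.7% higher with ICAT, and are not read as particular to these lists. Of 22 basal stratified epithelium genes, where basonuclin 1 is best known, 3 were lower and 0 higher with beta-catenin by limma (5 lower and 2 higher at an unadjusted p of 0.05), and 4 were higher and 2 lower with ICAT (median log2 differences -0.07 and -0.02). Of the 4 higher calls, that of Klf4 held in all 17 alternatives, whereas Dst was lost in 13 of 17 and changed sign in 1, Itgb4 was lost in 11 of 16 and Pkp1 in 8 of 17. Klf4, a transcription factor gene of differentiating epithelia, moved as Bnc1 did, 1.33-fold lower with beta-catenin and 1.35-fold higher with ICAT (limma, adjusted p = 0.0113 and 0.00827). The integrin gene Itga6 fell in both lines, 3.70-fold and 1.29-fold, and so did Klf5, 1.32-fold and 1.31-fold. Krt5 and Trp63, which define the basal layer, were called in neither comparison. Of 26 simple and secretory epithelium genes, where Wfdc2 is commonly expressed, 2 were higher and 1 lower with beta-catenin, and 5 were higher and 0 lower with ICAT by limma (0 lower also at an unadjusted p of 0.05; medians -0.01 and 0.01). The keratin genes Krt18 and Krt8 rose 2.43-fold and 1.85-fold with ICAT, where Wfdc2 was higher too. They did not pass with beta-catenin (log2 differences -0.44 and -0.05). Their log2 differences with ICAT, 1.28 and 0.89, were 1.60 and 1.04 without ICAT replicate 1, the highest ICAT array for Wfdc2. Krt18 ran from 7.87 to 8.92 on the ICAT arrays. Cd24a, a surface protein gene of epithelial and progenitor cells, rose in both lines, 2.50-fold and 1.79-fold.

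Of 8 tested mesothelial genes other than Bnc1, 3 fell and 0 rose with beta-catenin by limma (0 rose also at an unadjusted p of 0.05), and 2 rose and 0 fell with ICAT (0 fell also at an unadjusted p of 0.05), with median log2 differences of -0.13 and 0.15. Over all tested genes 15.4% were lower and 19.6% higher with beta-catenin, and 18.7% higher with ICAT. Msln, which encodes mesothelin, fell 5.74-fold with beta-catenin (limma, adjusted p = 8.41e-05), from log2 8.49, 8.55 and 8.63 to 6.11, 5.83 and 6.17, and stood at 7.77, 9.20 and 9.41 in ICAT cells, where it did not pass (adjusted p = 0.6345). ICAT replicate 1 lay below the control arrays for Msln, although it did not stand out for Bnc1. Efemp1, which is also on this list, moved like the members, and Krt19 rose 1.21-fold with ICAT in a call lost in 7 of 16 alternatives. Lrrn4, Gpm6a and Rspo1 lay under log2 5 on every array, and Wt1, a defining transcription factor gene of mesothelium, stood between 4.91 and 5.45 in beta-catenin cells and under 5 in the other groups. The filter on low values left Wt1 out of these counts. In the fit over all probe sets it was higher with beta-catenin, against the direction of Bnc1, by 0.92 on the log2 scale (limma, adjusted p = 9.92e-05) or at least 1.15-fold above the limit.

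Markers of other cell types moved in part with the members. Summed over 12 fibroblast markers on the linear scale, the level was log2 14.94 to 14.96 on control and 14.82 to 14.88 on beta-catenin arrays. On ICAT arrays it was 15.51 to 15.54. Bright genes carry such a sum, and with beta-catenin Col1a2 (mean log2 12.17 to 10.78) and Col3a1 (12.70 to 12.25) were lower. S100a4 (14.18 to 14.25), Pdgfra (8.58 to 10.62), Acta2 (7.90 to 9.20) and Col1a1 (6.12 to 7.25) were higher there. The order of the summed level is therefore not that of the 12 markers in general. Of the 10 tested, 8 were higher and 0 lower with ICAT by limma (0 lower also at an unadjusted p of 0.05), and 3 were higher and 2 lower with beta-catenin (medians 0.95 and 0.17), beside 18.7% of all genes higher with ICAT and 19.6% higher and 15.4% lower with beta-catenin. Of these calls, S100a4 with ICAT was lost in 7 of 17 alternatives, and Col3a1 with beta-catenin was lost, with its sign turned, with the mean of its probe sets. Col1a2 followed the members. Pdgfra was 4.11-fold and 4.04-fold higher with beta-catenin and ICAT by its brightest probe set, and 1.25 and 1.08 higher on the log2 scale by the mean of its probe sets. Acta2 was 1.31 higher with beta-catenin on the log2 scale by its brightest probe set. Its other probe sets had group means under log2 5. They differed by 0.10 and -0.11 and were not called (limma, adjusted p = 0.512 and 0.318 over all probe sets). Lum and Fap stayed under log2 5 on every array. The summed level of 5 epithelial markers was 8.81 to 8.90, 8.70 to 8.77 and 9.24 to 9.87, and of 5 mesothelial markers 9.16 to 9.25, 8.15 to 8.23 and 8.77 to 9.77, in control, beta-catenin and ICAT cells. For 7 immune markers it was 9.52 to 9.61, 9.24 to 9.32 and 9.48 to 9.64, with Ptprc and Itgam under log2 5 on every array, and Cd68 and Cd14 fell 1.47-fold and 1.42-fold with beta-catenin. For 5 endothelial markers it was 8.12 to 8.24, 8.15 to 8.33 and 8.12 to 8.24, with Cdh5 under 5 on every array. For 4 acinar markers it was 8.85 to 8.96, 9.64 to 9.77 and 9.13 to 9.20. Single genes carried 2 of these sums. The acinar sum followed Cela1 (group means 8.14, 9.35 and 8.54), while Prss2 (6.93, 6.89 and 6.95), Cpa1 and Ptf1a changed little. The mesothelial sum followed Msln (8.56, 6.04 and 8.79), while Upk3b (6.08, 6.14 and 6.11) and Upk1b (6.74, 6.63 and 6.76) changed little. The part of these genes in the values of Bnc1 and Wfdc2 was not tested.

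A list of secreted serine proteases, their inhibitors and related genes covers the field in which WAP proteins act. It included Serpinf1, Prss23, C1s1 and C1ra among those that rose and Plau and Plaur among those that fell. Of 32 tested, 10 were higher and 6 lower with beta-catenin (median log2 difference -0.01), and 10 were higher and 2 lower with ICAT (median 0.08, smaller than the shift of -0.12 that median centring brings, so that its sign depends on the scaling). Of all tested genes 19.6% were higher and 15.4% lower with beta-catenin, and 18.7% higher and 18.5% lower with ICAT. Serpinf1 rose in both lines, 15.2-fold and 4.70-fold (limma, adjusted p = 2.3e-07 and 3.02e-05). Its log2 difference with beta-catenin was 3.93, and 3.24 with the mean of its probe sets. The protease gene Prss23 also rose in both lines, 6.29-fold and 2.26-fold. The complement protease genes C1s1 and C1ra rose 11.2-fold and 7.47-fold with ICAT (limma, adjusted p = 1.73e-05 and 6.03e-05). With beta-catenin they rose less, 2.01-fold and 3.13-fold (limma, adjusted p = 0.0389 and 0.00263). The call of C1s1 with beta-catenin was lost in 6 of 17 alternatives. The urokinase gene Plau fell 2.82-fold with beta-catenin and by 0.998 on the log2 scale with ICAT, and its receptor gene Plaur fell in both lines, 1.87-fold and 1.69-fold.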

How the data were processed

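Per the labels' protocols, RNA of 9 samples was amplified by 3′ in vitro transcription and run on Affymetrix arrays. The authors deposited log2 expression of 45037 probe sets, and the submitters' processing notes name RMA and affy, without versions. Such values understate differences of dim probe sets, and a shift of all genes would be removed. A gene was represented by its single-gene probe set with the highest mean, after symbols were updated through Entrez identifiers (all but 204 of 34945 probe sets matched), which gave 18193 genes. Genes at log2 5 or higher on at least 3 arrays were tested (15235), and for folds, arrays under 5 in a group with a mean under 5 were set to 5.

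All 9 arrays entered 1 limma model of 3 group means (version 3.58.1, R 4.3.3; degrees of freedom 6 residual and 5.03 prior), tested two-sided with Benjamini-Hochberg adjustment over all genes within a comparison and a call at an adjusted p under 0.05. Every adjusted p in the text is limma's. The scripts were tested on simulated data. The members and the gene lists (WAP domain, basonuclin, RNA polymerase I, basal and simple epithelium, secreted proteases and inhibitors, mesothelial, fibroblast, immune and endothelial genes) were chosen with earlier results of these data known. Named genes were the members, all tested WAP domain and basonuclin genes, up to 2 largest increases and decreases among called genes of each other list, the 5 genes most correlated with each member, the 10 genes with the largest opposite differences and 3 measured genome neighbours on each side, and not every one is described. Defining markers that lay at or under the limit, and Krt5, Trp63, Pdgfra, Cd68, Cd14, Dst, Itgb4, S100a4 and Wt1 where the rule did not take them, were named after their values were seen. Symbols of 3 polymerase subunit genes were changed to those of the gene table. Alternatives were other filters, array weights, a variance trend, a replicate block, means of probe sets, median centring, fits of 2 groups and leaving out each array. Precision is limited by the 3 arrays in each group.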

Additional observations from a re-analysis of the deposited data

How the results depend on the processing

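The differences of Bnc1 and Wfdc2 from control kept their direction after median centring and without any 1 of the 9 arrays. They moved by less than the larger SD of the groups compared. The mean of probe sets and the replicate block could not change them. Each member has 1 single-gene probe set, and every group holds the same replicate numbers. Bnc1 lay between -1.80 and -1.53 with beta-catenin and between 1.70 and 1.83 with ICAT without 1 array, and Wfdc2 between -1.90 and -1.78 and between 1.31 and 1.46. After median centring the values with ICAT were 1.64 for Bnc1 and 1.29 for Wfdc2. The count of genes lower with beta-catenin and higher with ICAT, 278, ranged from 172 to 390 without 1 array and was 219 after median centring. With array weights 8324 genes were called with beta-catenin in place of 5321, and the cause was not tested. Col3a1, a fibroblast marker, was 0.45 below control with beta-catenin on the log2 scale by its brightest probe set and 0.0436 above it by the mean of its probe sets, because its other probe set was 0.54 higher. Of 142 calls of named genes, 121 held in every alternative. Arrays with the same replicate number are not said to share a day or culture, and the correlations of their deviations ran from -0.13 to 0.41, with the same number correlating best in 11 of 18 cases, so the number was not used for pairing. With the replicate block 5524 genes were called with beta-catenin, 5853 with ICAT, 6389 between the lines and 291 in the opposite class. The differences of Bnc1 and Wfdc2 are by design those of the unblocked fit (-1.67, 1.76, -1.83 and 1.41). Signal near the chosen limit of log2 5 bounds the fold of Bnc1 in beta-catenin cells.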

Other observations

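Genes beside Bnc1 on chromosome 7 and beside Wfdc2 on chromosome 2, by the order of genes in a RefSeq table for GRCm38.p6, differed in how they moved. Beyond Bnc1 on one side, both nearest measured genes, the endophilin gene Sh3gl3 and Adamtsl3, were called lower with beta-catenin (by 0.43 and 0.34 on the log2 scale; limma, adjusted p = 0.000778 and 0.00351) and higher with ICAT (by 0.36 and 0.28; adjusted p = 0.00255 and 0.00895), as 1.82% of all tested genes were. Saxo2, the next, was called in neither comparison. The ICAT call of Adamtsl3 was lost when arrays were centred on their medians (adjusted p = 0.0817). Sh3gl3 stood at log2 7.92, 7.94 and 7.88 in control cells. It stood at 7.44, 7.54 and 7.48 in beta-catenin and 8.12, 8.31 and 8.38 in ICAT cells. This order without overlap was seen in 3.48% of all tested genes. On the other side of Bnc1, Hdgfl3 and Btbd1 were higher in both lines (0.78 and 0.39 with beta-catenin, 0.23 and 0.29 with ICAT; for Hdgfl3 1.87 and 0.81 with the mean of its probe sets), with the call of Hdgfl3 in ICAT cells lost in 5 of 17 alternatives and that of Btbd1 in beta-catenin cells lost with the mean of its probe sets, and Tm6sf1 was called in neither comparison.

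None of the tested neighbours of Wfdc2 was called in both comparisons. Dbndd2 was lower with beta-catenin by 0.42 on the log2 scale (limma, adjusted p = 0.000481) and Pigt was higher with ICAT by 0.46 (adjusted p = 0.000232), and each of these calls was lost with the mean of the probe sets. Eppin, a WAP domain gene next to Wfdc2 among tested genes, and Spint4 were called in neither comparison, and Trp53tg5 and Wfdc6a lay under the filter. Adjacency was taken from gene order, and the neighbours were too few for a statement about the region.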
